A study of Homo sapiens with 6 samples.

Results

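The transcription factor p53 is held at a low level by MDM2, the ubiquitin ligase that marks it for degradation, and it accumulates after DNA damage and after failed cell division. It binds DNA as a tetramer at pairs of short half-sites and switches on genes that stop the cell cycle, repair DNA, change metabolism or start apoptosis. One of its targets is MDM2 itself, which closes a negative feedback loop. Cells that become tetraploid after a mitotic block are known to be held in G1 through this pathway. The genes described here are 31 well-known p53 pathway and target genes. They were chosen by symbol, and all 31 were found among the 59008 gene symbols of the expression table. Of these, 30 had a mean level of at least 1 TPM (transcripts per 1000000, an abundance scaled by transcript length) over the libraries, and TP53AIP1 did not.

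RNA sequencing covered 6 libraries, 1 for each of 3 states in each of the established ovarian cancer cell lines Hey and SKOV3. Parental cells were untreated. PGCCs (polyploid giant cancer cells) had received 500 nM paclitaxel, which stabilizes microtubules and blocks mitosis, for 16 h and had then recovered for 3 days, although the title of the SKOV3 PGCC library gives day 7. Daughter cells had received the same treatment followed by 30 days of recovery, and each daughter library is 1 clone. No group had a replicate, so values within a line carry no error and no p-value. A gene was called higher or lower where the difference of log2(TPM + 1) was at least 1, a 2-fold difference on that scale. TPM values are relative to each library, so more RNA of a gene per cell, a change in the total RNA of a giant cell and a change in the mix of cells cannot be told apart. The libraries had 19920 to 25370 genes above 0, and genes of the mitochondrial genome took 2.64% to 14.8% of the TPM. KRT8, KRT18, KRT7 and PAX8, 4 of 8 markers of epithelial ovarian carcinoma, were at 1 TPM or more in all 6 libraries. In Hey, EPCAM reached at most 1.43 TPM, MUC16 at most 0.0322 TPM and KRT19 at most 3.60 TPM, with 0 in daughter cells. WT1 ranged from 0.530 to 4.10 TPM over the 6 libraries. The summed levels ranged from 1.52 to 69.5 TPM for 4 immune markers, from 0.121 to 27.3 TPM for 5 fibroblast markers and from 0.0622 to 48.8 TPM for 3 endothelial markers. CD3E was at 0 throughout, PTPRC and CD14 stayed below 1 TPM, and CD68 and CDH5, both highest in Hey, made up most of the high immune and endothelial sums. COL1A1 (16.3 TPM), LUM (5.56 TPM) and PDGFRB (5.35 TPM) made up most of the highest fibroblast sum, in SKOV3 daughter cells. In SKOV3 parental cells these were at 2.35, 8.84 and 0.280 TPM. Their part in the results was not tested.

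The RefSeq promoter windows (GRCh38.p14, from 250 bases before to 50 bases after each start) were searched for the p53 half-site consensus on both strands. Of the 31 genes 26 had a window, and those without one were TP53INP1, GADD45A, RRM2B, PHLDA3 and FBXO22. A half-site lay in the 300-base window of 5 of the 26 genes (19.2%), beside 8.06% of all 27305 genes with a window. A pair of half-sites 0 to 13 bases apart lay in the window of 1 gene, DDB2, beside 0.0366% of all genes. Within 2500 bases of a start, a distance chosen after seeing the data, 4 of 26 genes (15.4%) had such a pair, beside 0.743% of all genes. Adjacent half-sites with at most 2 mismatches, none of them at the C or G of the core, lay there in 9 of 26 genes (34.6%), beside 4.59% of all genes. The sequences below are a selection. Their genes either carry the differences described further on or, for PLK2, were not called within either line. Matches with mismatches in AEN, SPATA18 and DDB2 and a further match in CCNG1 are not printed. Capitals mark bases that match the consensus and small letters mark mismatches or the gap between half-sites. Each is given on the listed strand of GRCh38, and a match is a description of the letters, not of binding.
CDKN1A: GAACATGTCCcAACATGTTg
MDM2: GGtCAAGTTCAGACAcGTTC
BTG2: AcGCATGTTCAGGCATGCaT
CCNG1: GcACAAGCCCAGGCTAGTCC
ZMAT3: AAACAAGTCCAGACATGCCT
TIGAR: AGACATGTCCacAGACTTGTCT
DDB2: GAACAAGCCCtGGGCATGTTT
PLK2: AAACATGCCTGGACTTGCCC

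The CDKN1A sequence is at chr6:36676449-36676468 (plus strand), with its centre at -2256 from the nearest start in the RefSeq table, and it spans the first base of the gene in GENCODE. That of BTG2, at chr1:203303642-203303661 (plus strand), is upstream of the gene, at -1868. The MDM2 sequence, at chr12:68808923-68808942 (plus strand), is intronic and lies at -84 from an internal start. The CCNG1 sequence (chr5:163437926-163437945, plus strand), the ZMAT3 sequence (chr3:179070188-179070207, minus strand) and the TIGAR sequence (chr12:4321615-4321636, plus strand) are intronic. The DDB2 sequence (chr11:47214979-47214999, plus strand) is exonic, centred 15 bases after the start. The PLK2 sequence (chr5:58462274-58462293, minus strand) is upstream, at -2198. Those of ZMAT3, TIGAR, DDB2 and PLK2 are full pairs with no mismatch.

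As a group these genes were more abundant in Hey than in SKOV3. Their median level was 25.6, 40.9 and 37.3 TPM in Hey parental cells, PGCCs and daughter cells, and 10.0, 13.1 and 11.9 TPM in the corresponding SKOV3 libraries. The most abundant of them was PLK2, a polo-like kinase of the stress response, in 5 libraries, at 228 to 544 TPM. In Hey PGCCs MDM2 took its place at 672 TPM, rank 176 among all genes. TP53AIP1, an apoptosis gene of mitochondria, reached at most 0.176 TPM.

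**Figure D1:**
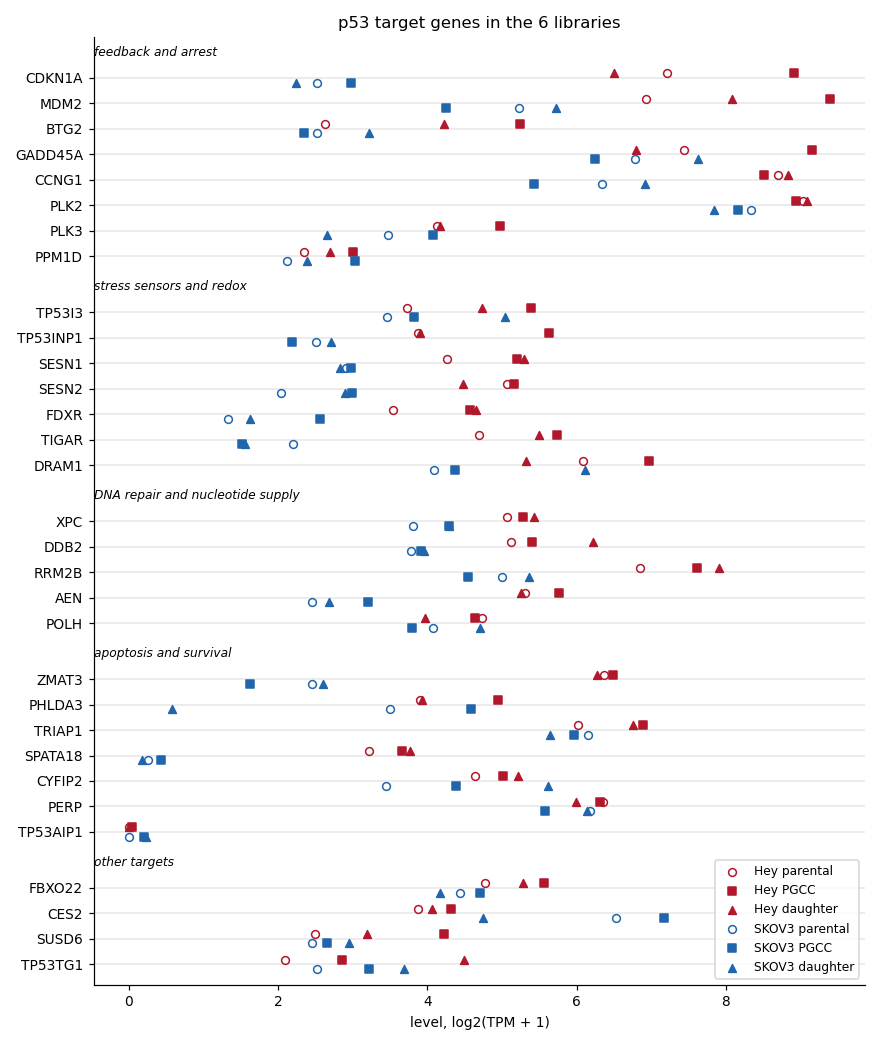
Level of each of the 31 genes as log2(TPM + 1), grouped by role, with 1 point per library; red points are Hey and blue points SKOV3, open circles parental cells, squares PGCCs and triangles daughter cells. For CDKN1A, ZMAT3 and TIGAR the 3 Hey libraries lie well to the right of the 3 SKOV3 libraries, while PPM1D and PERP sit at similar levels in all 6.

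The first comparison asks which p53 targets differ between PGCCs and the parental cells they came from. In Hey, 10 of the 31 genes were at least 2-fold higher in PGCCs and 0 were lower. In descending order of the difference these were BTG2, MDM2, TP53INP1, SUSD6, GADD45A, CDKN1A, TP53I3, TIGAR, PHLDA3 and FDXR. Among all 14988 genes with a mean of at least 1 TPM, 7.67% were higher and 5.22% lower. The median difference over the 31 genes was 0.76, beside a median of 0 over all genes, and 27 of 31 were above 0. In SKOV3 only FDXR and PHLDA3 were called higher and 0 genes were lower, where the background was 9.94% higher and 4.96% lower. The median difference in SKOV3 was 0.20, with 19 of 31 genes above 0. FDXR and PHLDA3 were thus the 2 genes called higher in both lines, and 0.834% of all genes were.

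Genes of cell cycle arrest and feedback had the highest median difference of the roles in Hey PGCCs and the lowest in SKOV3 PGCCs, and roles were not compared by a test. CDKN1A, the inhibitor of cyclin-dependent kinases that carries out p53-dependent G1 arrest, was at 148, 480.0 and 89.4 TPM in Hey (given here and below in the order parental, PGCC, daughter) and at 4.76, 6.84 and 3.73 TPM in SKOV3. Its PGCC difference was 1.70 in Hey and 0.44 in SKOV3 on the log2(TPM + 1) scale. The lowest Hey level was therefore above the highest SKOV3 level. MDM2 was at 121, 672 and 269 TPM in Hey and at 36.3, 18.0 and 51.9 TPM in SKOV3. Its PGCC difference was 2.47 in Hey and -0.98 in SKOV3, just short of a call in the opposite direction. BTG2, an antiproliferative protein that promotes mRNA deadenylation, was at 5.16, 36.8 and 17.7 TPM in Hey and at 4.73, 4.10 and 8.29 TPM in SKOV3. The parental levels of BTG2 were alike in the 2 lines, and the Hey PGCC library stood 7.13-fold above its parental cells.

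GADD45A, a growth arrest and DNA damage protein, was at 173, 565 and 109.6 TPM in Hey and at 109, 74.5 and 196 TPM in SKOV3. It was highest in PGCCs in Hey and lowest in PGCCs in SKOV3. The other genes of this role were not called in PGCCs of either line. CCNG1 (cyclin G1) had PGCC differences of -0.19 in Hey and -0.91 in SKOV3, PLK2 of -0.10 and -0.17, and PLK3, its relative, of 0.85 and 0.60. PPM1D, the phosphatase that turns the p53 response off, had differences of 0.66 and 0.91. Together, 4 of the 8 arrest and feedback genes were higher in Hey PGCCs, with a median of 1.27, beside 7.67% of all genes. In SKOV3 PGCCs 0 of 8 were higher, with a median of -0.17, beside 9.94% of all genes.

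Among the 7 genes of stress sensing, metabolism and autophagy, 4 were called higher in Hey PGCCs, beside 7.67% of all genes. All 7 had differences above 0 there, beside 49.97% of all genes. In SKOV3 PGCCs 1 of the 7, FDXR, was called higher, beside 9.94% of all genes. There 5 of the 7 were above 0, beside 51.1% of all genes. TP53INP1, which promotes autophagy and cell death, was at 13.6, 48.3 and 13.9 TPM in Hey parental cells, PGCCs and daughter cells and at 4.68, 3.56 and 5.51 TPM in SKOV3. Only the Hey PGCC library stood out, by 1.75 over its parental cells. TP53I3, a quinone oxidoreductase, was at 12.3, 40.9 and 25.5 TPM in Hey and at 10.0, 13.1 and 31.8 TPM in SKOV3, so that the highest library was the PGCCs in Hey and the daughter cells in SKOV3. FDXR, the mitochondrial ferredoxin reductase, was at 10.7, 22.8 and 24.1 TPM in Hey and at 1.52, 4.89 and 2.08 TPM in SKOV3. Its PGCC difference was 1.03 in Hey and 1.23 in SKOV3.

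TIGAR, a phosphatase that lowers glycolytic flux, was at 24.9, 52.5 and 44.3 TPM in Hey and at 3.61, 1.85 and 1.94 TPM in SKOV3. Both treated states were above the parental cells in Hey and below them in SKOV3. SESN1, a sestrin that restrains mTORC1, was at 18.1, 35.8 and 38.2 TPM in Hey and at 6.53, 6.86 and 6.14 TPM in SKOV3, where it hardly moved. DRAM1, a lysosomal protein of autophagy, was at 66.6, 124 and 38.9 TPM in Hey and at 16.0, 19.7 and 68.3 TPM in SKOV3. SESN2, the other sestrin here, had PGCC differences of 0.09 in Hey and 0.95 in SKOV3.

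Of the 7 genes of apoptosis and survival, 1 was called in PGCCs of each line, PHLDA3 in both. Among all genes, 7.67% were higher and 5.22% lower in Hey PGCCs, and 9.94% and 4.96% in SKOV3 PGCCs. PHLDA3, which inhibits AKT, was at 13.9, 29.7 and 14.2 TPM in Hey and at 10.3, 22.9 and 0.489 TPM in SKOV3. The PGCC library was the highest of its line in both. The other genes of this role lay between -0.04 and 0.86 in Hey PGCCs and between -0.83 and 0.94 in SKOV3 PGCCs, with ZMAT3, an RNA-binding protein, at the lower end in SKOV3 and CYFIP2 at the upper end. None of the 5 genes of DNA repair and nucleotide supply was called in PGCCs of either line. Their differences ranged from -0.09 for POLH, the translesion polymerase, to 0.76 for RRM2B, the p53-inducible ribonucleotide reductase subunit, in Hey. In SKOV3 they ranged from -0.46 for RRM2B to 0.75 for AEN, an apoptosis-enhancing exonuclease that was listed in this group. Of the 4 remaining genes, SUSD6, a membrane protein, was at 4.65, 17.7 and 8.15 TPM in Hey and at 4.46, 5.28 and 6.69 TPM in SKOV3, so that only the Hey PGCC library was raised over its parental cells by more than 2-fold.

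**Figure D2:**
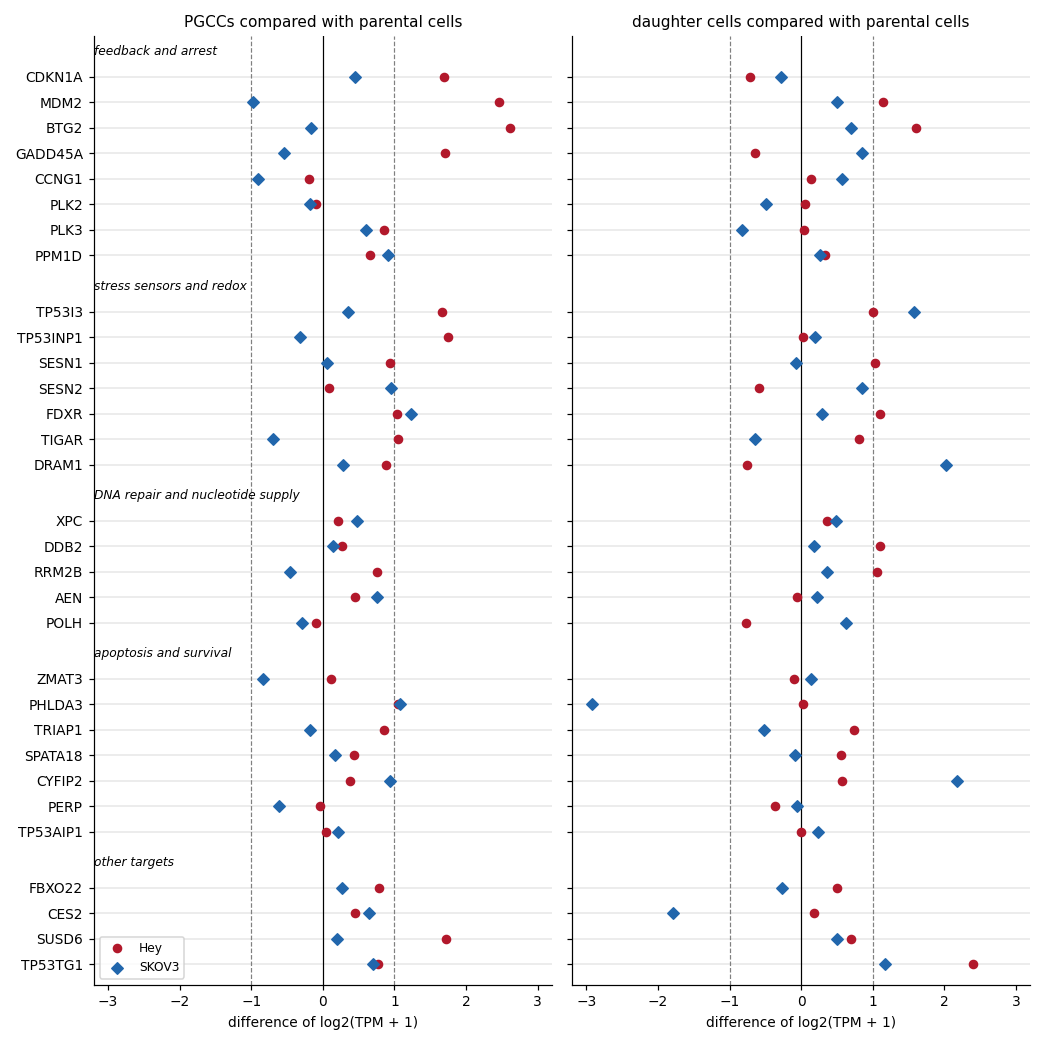
Difference of log2(TPM + 1) from the parental cells of the same line for each of the 31 genes, in PGCCs (left) and daughter cells (right), with Hey as red circles and SKOV3 as blue diamonds; dashed lines mark a 2-fold difference, and each point compares 1 library with 1 library. In PGCCs, 10 Hey circles lie at or beyond 1 on the right, and 2 SKOV3 diamonds do.

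The scaling of the libraries touched the calls near the threshold. With each library scaled by its median ratio (division by the median over genes of the ratio to their geometric mean), FDXR (0.97), PHLDA3 (0.98) and TIGAR (0.97) were no longer called in Hey PGCCs, which left 7 genes. With mitochondrial genes left out there were 14. A pseudocount of 0.1 in place of 1 gave 6 genes higher and 2 lower in SKOV3 PGCCs. MDM2 was then among the lower genes at -1.01, and TP53AIP1, at most 0.176 TPM, was among the higher ones.

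In SKOV3 the PGCC differences followed the GC content of the transcripts. Over 13468 genes the Spearman correlation of the difference with GC content was 0.72 in SKOV3 and -0.044 in Hey. Over the 30 p53 genes with a mean of at least 1 TPM it was 0.70 in SKOV3 and 0.12 in Hey. These are correlations across genes that share 2 libraries, and they describe those libraries. The 12 genes under 45% GC, MDM2, ZMAT3, CCNG1, TIGAR and RRM2B among them, had a median of -0.39 in SKOV3 PGCCs, and 8 of 12 were below 0. All genes under 45% GC had the same median of -0.39. The 7 genes at 55% GC or more, which include FDXR, PHLDA3, SESN2 and CDKN1A, were all above 0 with a median of 0.75, again the median of all genes of that class. With the trend in GC content and length removed, FDXR (0.33) and PHLDA3 (0.40) were no longer called in SKOV3 PGCCs, and PPM1D (1.02) and TP53TG1 (1.06) were. The median of the SKOV3 differences was then 0.13. In Hey the same step left 10 genes called higher and a median of 0.79. The part of GC content in the SKOV3 differences beyond these values was not tested.

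**Figure D3:**
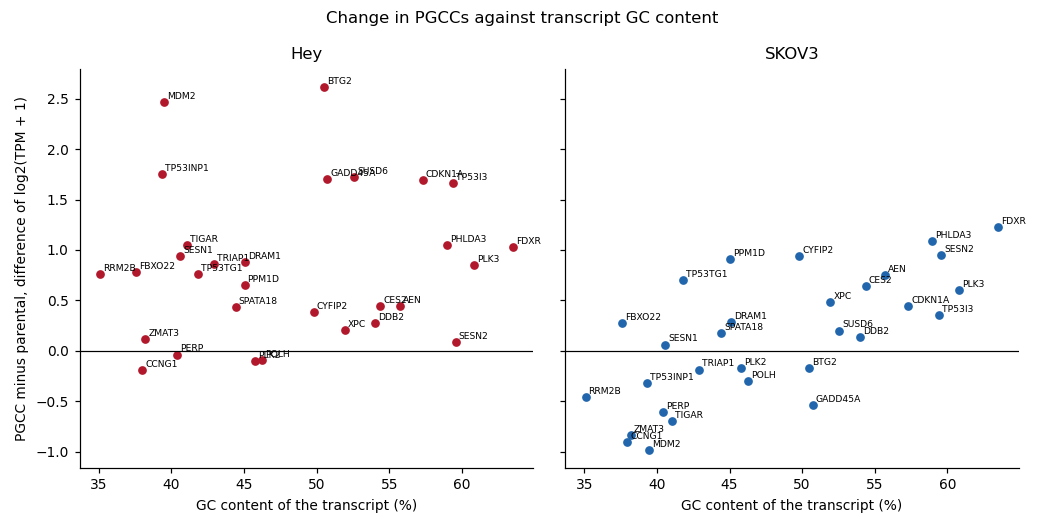
Difference of log2(TPM + 1) between PGCCs and parental cells against the GC content of the transcript in percent, for the 30 p53 genes with a mean of at least 1 TPM, in Hey (left, red) and SKOV3 (right, blue). The SKOV3 points climb from MDM2, CCNG1 and ZMAT3 at the lower left to FDXR at the upper right (Spearman 0.70), and the Hey points show no such slope (0.12).

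The next comparison asks what differed in the daughter cells after 30 days of recovery. In Hey, 7 of 31 genes were at least 2-fold higher in daughter than in parental cells and 0 were lower, beside 6.31% and 3.73% of all genes. These were TP53TG1 (2.40), BTG2 (1.60), MDM2 (1.15), FDXR (1.11), DDB2 (1.10), RRM2B (1.06) and SESN1 (1.04), and the median over the 31 genes was 0.34. In SKOV3, 4 of 31 genes (12.9%) were higher, CYFIP2 (2.18), DRAM1 (2.03), TP53I3 (1.58) and TP53TG1 (1.17). PHLDA3 (-2.92) and CES2 (-1.78), 2 of 31 (6.45%), were lower. Both shares were near the background in SKOV3 of 15.1% higher and 6.34% lower. The medians were 0.23 over the p53 genes and 0.15 over all genes. With the median-ratio scaling 3 genes were called higher in Hey daughter cells, and with quantile normalization 4.

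DDB2, which recognizes ultraviolet lesions in DNA, was at 33.9, 41.2 and 73.8 TPM in Hey parental cells, PGCCs and daughter cells and at 12.7, 14.1 and 14.5 TPM in SKOV3. RRM2B was at 114, 195 and 239.8 TPM in Hey and at 30.9, 22.3 and 40.2 TPM in SKOV3. In both genes the daughter cells were the highest library of Hey. CYFIP2, a subunit of the WAVE complex that regulates actin, was at 23.8, 31.4 and 36.0 TPM in Hey and at 9.87, 19.9 and 48.2 TPM in SKOV3, so the order parental, PGCC, daughter was the same in both. CES2, a carboxylesterase that activates prodrugs, was at 13.6, 18.97 and 15.7 TPM in Hey and at 91.0, 143 and 25.7 TPM in SKOV3. CES2 and PHLDA3, lower in SKOV3 daughter than in parental cells, were also called lower there than in SKOV3 PGCCs, where 9.25% of all genes were.

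The 1 gene called higher in the daughter cells of both lines was TP53TG1, a noncoding RNA gene on chromosome 7, beside 1.19% of all genes. It was at 3.25, 6.22 and 21.5 TPM in Hey and at 4.73, 8.29 and 11.9 TPM in SKOV3. In SKOV3 the call was lost with the median-ratio scaling (0.96) and with quantile normalization (0.84). TP53TG1 lies 157 kb from ABCB1, the gene of the efflux pump P-glycoprotein. ABCB1 was at 0.195, 1.60 and 43.3 TPM in Hey and at 0.329, 0.168 and 231 TPM in SKOV3, so both genes were highest in the daughter cells of each line. Its part in the TP53TG1 levels was not tested.

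Between daughter cells and PGCCs the 2 lines went in opposite directions for several genes. In Hey, 8 of 31 genes were at least 2-fold lower in daughter cells (CDKN1A, GADD45A, TP53INP1, DRAM1, MDM2, SUSD6, PHLDA3 and BTG2) and TP53TG1 was higher, where 8.13% of all genes were lower and 9.95% higher. In SKOV3, 6 genes were higher (DRAM1, MDM2, CCNG1, GADD45A, CYFIP2 and TP53I3) and 3 were lower (PHLDA3, CES2 and PLK3), where 14.6% of all genes were higher and 9.25% lower. MDM2, GADD45A and DRAM1 were therefore lower in Hey daughter cells and higher in SKOV3 daughter cells than in the PGCCs of the line, where 2.84% of all genes were called in opposite directions. PHLDA3 was lower in both, by -1.02 in Hey and -4.00 in SKOV3, where 1.07% of all genes were. These comparisons share the PGCC libraries with those against parental cells. After removal of the GC and length trend, the values of MDM2 (0.94), CCNG1 (0.96) and PLK3 (-0.97) in SKOV3 fell short of a call.

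**Figure D4:**
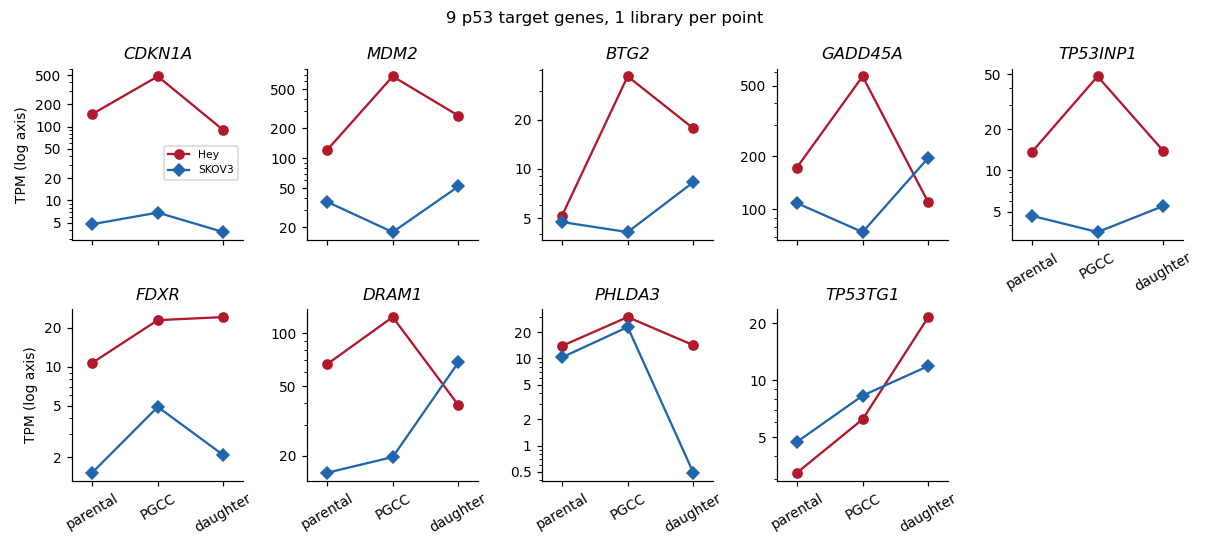
TPM of 9 p53 target genes on log axes in parental cells, PGCCs and daughter cells, with Hey in red and SKOV3 in blue and 1 library per point. CDKN1A, MDM2, BTG2, GADD45A and TP53INP1 peak in Hey PGCCs, and TP53TG1 is highest in the daughter cells of both lines.

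A limma fit on all 6 libraries had state and cell line as terms and 2 residual degrees of freedom. Its error was the disagreement between the lines, moderated toward a variance trend over all genes (empirical Bayes). An SE or p of 1 gene therefore does not rest on the disagreement of that gene alone. None of the 30 genes tested had an adjusted p under 0.05 for PGCCs against parental cells, for daughter against parental cells or for daughter cells against PGCCs. Of all genes 0.02%, 0.0133% and 0% had one in these 3 contrasts. At an unadjusted p under 0.05, FDXR was higher in PGCCs than in parental cells, with a log2 difference of 1.13 ± 0.452 (SE) and an adjusted limma p of 1, where 1.16% of all genes were. TP53TG1, CYFIP2 and TP53I3 were higher in daughter than in parental cells at that level, where 2.43% of all genes were. PHLDA3, CDKN1A, PLK3 and CES2 were lower in daughter cells than in PGCCs, where 1.98% of all genes were. The smallest adjusted p of the latter was 0.908. Whether the response of the 2 lines differed could not be tested, since an interaction of line and state leaves no residual degrees of freedom. As a description, the PGCC difference in Hey exceeded that in SKOV3 by at least 1 for 10 of 31 genes, the reverse held for 0, and the median excess was 0.50. Over all genes 12.8% exceeded and 15.9% fell short by that much, with a median of -0.016. The GC trend of the SKOV3 PGCC differences (Spearman 0.72 over 13468 genes) was not removed from these values.

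The last comparison sets Hey against SKOV3 in the same state. Of the 31 genes, 16 were at least 2-fold higher in Hey parental cells and 1 was lower, beside 11.5% higher and 24.2% lower among all genes. In PGCCs 18 were higher and 1 lower (background 13.4% and 29.6%). In daughter cells 20 were higher and 0 lower (background 12.3% and 29.5%). The median differences over the p53 genes were 1.19, 1.57 and 1.19, whereas those over all genes were -0.29, -0.35 and -0.38. In all 3 states 13 genes were higher in Hey and 0 were lower, beside 4.71% and 11.5% of all genes. Of the 13, CDKN1A, MDM2 and CCNG1 were arrest and feedback genes, and TP53INP1, SESN1, SESN2, FDXR and TIGAR were stress and metabolism genes. DDB2, RRM2B and AEN were listed under DNA repair and nucleotide supply, although AEN is an apoptosis-enhancing exonuclease. ZMAT3 and SPATA18 were apoptosis and survival genes.

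In the limma fit over the 6 libraries, 14 of 30 genes were higher in Hey at an adjusted p under 0.05 and CES2 was lower, where 6.27% of all genes were higher and 14.4% lower. The 3 states of a line are not independent replicates of it, so these p-values measure the line difference against its variation between states. That variation was moderated over all genes in the same way. The largest difference was that of CDKN1A, at 4.96 ± 0.395 (SE, limma adjusted p = 0.000416), with ratios of TPM of 30.97, 70.1 and 24.0 in parental cells, PGCCs and daughter cells. ZMAT3 followed at 4.15 ± 0.358 (limma adjusted p = 0.000559), with 81.7, 88.8 and 76.4 TPM in Hey and 4.49, 2.09 and 5.05 TPM in SKOV3. TIGAR differed by 3.56 ± 0.425 (limma adjusted p = 0.00201). SPATA18, which takes part in the repair and removal of damaged mitochondria, was at 8.30, 11.6 and 12.7 TPM in Hey and stayed between 0.127 and 0.343 TPM in SKOV3.

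MDM2 differed by 3.07 ± 0.620 (SE, limma adjusted p = 0.0149), with the widest gap in PGCCs, where the ratio of TPM was 37.4, against 3.33 in parental cells and 5.19 in daughter cells. CCNG1 was at 415, 364 and 456 TPM in Hey and at 80.0, 42.2 and 119 TPM in SKOV3, so that the groups did not overlap. The other genes higher in Hey by limma were AEN, RRM2B, FDXR, SESN2, SESN1, DDB2, TP53INP1 and XPC, a sensor of DNA distortion. CES2 was lower in Hey by -2.06 ± 0.466 (limma adjusted p = 0.0220). For 15 genes the adjusted p was above the threshold, and PPM1D (0.17), TP53TG1 (0.0041), POLH (0.25) and PERP (0.26), a desmosomal protein, had the smallest log2 differences between the lines. When all genes with a TPM above 0 in any library entered the limma fit, 3 of the 31 genes had an adjusted p under 0.05. The share of all genes in that fit is not given here, so this count cannot be set against a background.

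**Figure D5:**
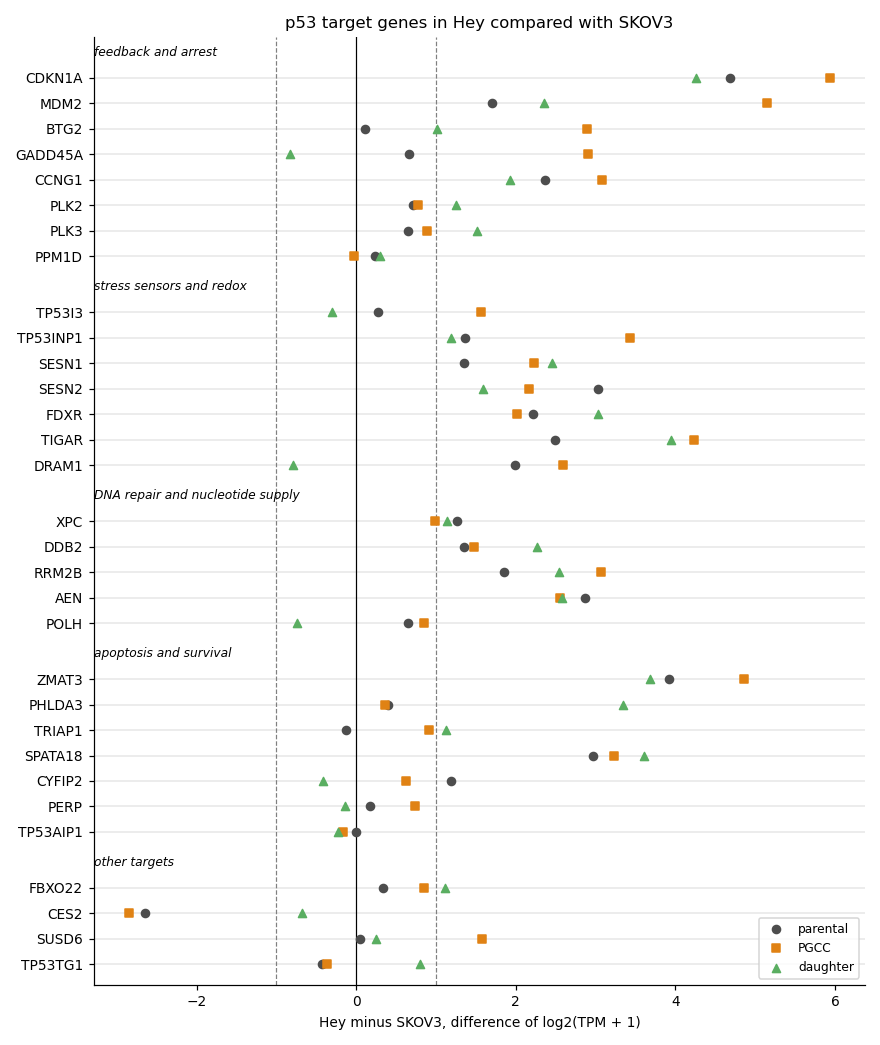
Hey minus SKOV3 as a difference of log2(TPM + 1) for each of the 31 genes in parental cells (grey circles), PGCCs (orange squares) and daughter cells (green triangles), 1 library against 1 library per point; dashed lines mark a 2-fold difference. For 13 genes, CDKN1A and ZMAT3 among them, all 3 points lie to the right of 1, and CES2 is the 1 gene with points beyond -1.

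MDM4, the partner of MDM2 that blocks p53 activity, was at 9.08, 12.3 and 8.73 TPM in Hey and at 9.02, 11.5 and 14.8 TPM in SKOV3, without a call against parental cells. TP63, a family member that binds similar DNA, stayed below 1 TPM in all 6 libraries, at 0 to 0.0655 TPM in Hey and 0.261 to 0.933 TPM in SKOV3. Protein levels were not measured in these files.

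Of 16 p53 regulators and family members, 1 was higher and 2 were lower in Hey PGCCs than in parental cells, with a median of -0.066. Of all genes, 7.67% were higher and 5.22% lower. In SKOV3 PGCCs 0 of the 16 were called, with a median of -0.056, beside 9.94% higher and 4.96% lower among all genes. The calls in Hey were EP300 (1.10), an acetyltransferase and coactivator, and ATR (-1.08) and CHEK1 (-1.43), kinases of the replication checkpoint. These genes were named after their values were seen. In SKOV3 daughter cells 0 regulators were called against parental cells, beside 15.1% higher and 6.34% lower among all genes. Between the lines 13 of the regulators were tested. Of these, 2 were lower in Hey at a limma adjusted p under 0.05, TP53BP1 and CHEK1, where 14.4% of all genes were. That count is near the share over all genes. TP53BP1, a DNA break adaptor, was lower by -2.00 ± 0.370 (limma adjusted p = 0.0110).

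A list of 24 further p53 targets was described in the same way. In Hey PGCCs 4 were higher than in parental cells and 0 lower, with a median of 0.39, beside 7.67% and 5.22% of all genes. The 4, named after their values were seen, were the stress cytokine GDF15 (3.41), the tetraspanin CD82 (2.72), the ribosomal protein-like RPS27L (1.35) and the growth factor TGFA (1.18). In SKOV3 PGCCs 5 were higher (NINJ1, DDIT4, EPHA2, TP53I11 and SFN) and PCNA was lower at -1.004, with a median of 0.52, beside 9.94% higher and 4.96% lower among all genes. The 5 higher genes had a GC content of 58.0% to 62.8%, in the class whose median over all genes was 0.75 in SKOV3 PGCCs, and PCNA had 43.5%. No gene of this list was called in both lines. The core apoptosis genes BAX and BBC3 were not called in PGCCs, at -0.39 and 0.73 in Hey and 0.52 and 0.67 in SKOV3. In daughter cells 4 of the 24 were higher and 0 lower than in parental cells in Hey, beside 6.31% and 3.73% of all genes. In SKOV3 4 were higher and 3 lower, beside 15.1% and 6.34% of all genes. THBS1, a matrix glycoprotein, was higher in both lines (2.04 and 2.98), where 1.19% of all genes were. SFN, a regulator of the G2 checkpoint, was higher in Hey (1.28) and lower in SKOV3 (-3.19). Between the lines 13 of 24 had a limma adjusted p under 0.05, 10 higher in Hey and 3 lower, beside 6.27% and 14.4% of all genes. The 3 lower in Hey were TP53I11, THBS1 and IGFBP3. EDA2R, a TNF receptor family member, was at 25.4, 38.9 and 26.5 TPM in Hey and at 0, 0 and 0.842 TPM in SKOV3. TP53I11 went the other way, at 0 TPM in each Hey library and at 6.03, 14.9 and 18.1 TPM in SKOV3. THBS1, SFN, EDA2R and TP53I11 were named here after their values were seen.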

How the data were processed

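RNA of 6 libraries (Hey and SKOV3, each as parental cells, PGCCs and daughter cells) was sequenced. Per the labels and the study's methods, the authors cleaned reads with fastp, quantified them on the hg38 transcriptome with Salmon 0.14.1 and deposited TPM values, 1 per gene symbol and library. How transcripts were combined into symbols, the annotation release and the bias options are not given in the sources used here. TPM keeps no read counts, so depth per gene and counting error are unknown, and count tests were not used. Strand use is not stated, so reads of overlapping genes may not be told apart.

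Differences of log2(TPM + 1) were taken between single libraries, and 1 or more was called. The limma fit (limma 3.58.1, R 4.3.3) used genes whose mean TPM reached 1 and Benjamini-Hochberg adjustment over 14988 genes. Variances were moderated by empirical Bayes with an intensity trend. Ratios of TPM are without a pseudocount. Transcript GC content and length came from GENCODE release 44, matched by symbol. The trend was removed by lowess (fraction 0.3, 2 passes). Python 3.11.15 with pandas 2.3.3, statsmodels 0.14.6 and pysam 0.24.0 was used for other steps. On data simulated from the table for PGCCs against parental cells in both lines, with 200 of 14947 genes changed 4-fold, limma found 200 and called 9 unchanged genes, and the 2-fold call found 200 and 0. In the simulation each gene had the same mean in both lines, and the lines differed only by small noise. It therefore checks the steps and does not give the power of the fit on the real libraries.

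The genes and lists were chosen with earlier results of these data known. All 6 values are given for genes of at least 1 TPM in any library that were called in PGCCs or daughter cells against parental cells, and other genes were added in the comparison between lines. Of the further lists, counts, medians, MDM4 and TP63 were given by rule, and some items of these lists are not reported here. Alternatives were a pseudocount of 0.1, a filter at a mean TPM of 1, median-ratio scaling, quantile normalization, mitochondrial genes left out, the trend removed, and for limma all genes above 0, no intensity trend and no second term. The 2500-base search and the search with mismatches were added after seeing the data.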

Additional observations from a re-analysis of the deposited data

Results flagged for a closer look

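For 3 genes the difference between daughter cells and PGCCs passed 2-fold in opposite directions in the 2 lines, with 1 library per group, and the difference between the lines was not tested. Of all genes 2.84% did so. MDM2 was at -1.32 in Hey and 1.48 in SKOV3 on the log2(TPM + 1) scale, and the SKOV3 value was 0.94 with the GC and length trend removed, short of a call. GADD45A was at -2.36 in Hey and 1.38 in SKOV3. DRAM1 was at -1.64 in Hey and 1.74 in SKOV3.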

How the results depend on the processing

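No paired analysis was possible because each line and state has 1 library, so replicate numbers pair no samples beyond the cell line, which the limma fit holds as a term. Of 43 differences of at least 2-fold within a line, 43 kept the call with the pseudocount of 0.1, the filter and mitochondrial genes left out, 35 with median-ratio scaling, 39 with quantile normalization and 37 with the GC and length trend removed. Of 56 between lines, 1 lost it, BTG2 in daughter cells with mitochondrial genes left out (0.91). No called difference reversed in these settings. Leaving out mitochondrial genes moved the median of all genes to 0.12 in Hey PGCCs against parental cells and to 0.24 in SKOV3 daughter against parental cells.

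Counts that moved by over 1.5 times were these. In SKOV3 PGCCs against parental cells, 6 genes were higher and 2 lower with the pseudocount of 0.1 (main values 2 and 0), and 1 was lower with median-ratio scaling, 1 with quantile normalization and 1 with mitochondrial genes left out, each time MDM2 (-1.04, -1.04 and -1.01). In Hey daughter against parental cells, 3 were higher with median-ratio scaling and 4 with quantile normalization (main value 7). Quantile normalization gave 4 lower genes in SKOV3 daughter against parental cells (main value 2) and 5 against PGCCs (main value 3). The pseudocount of 0.1 gave 1 lower gene in Hey against SKOV3 daughter cells (main value 0), TP53AIP1. With all genes above 0 in the limma fit, 3 genes differed between lines (main value 15), and 14 to 17 did in the other 4 alternatives. Shares over all genes are not given here for these alternatives, so the counts cannot be set against a background. For the state contrasts limma gave 0 genes in each alternative. The cause of these moves was not tested. With no replicates, no difference within a line, near 2-fold or larger, can be set against a spread between libraries.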
